A study of Mus musculus with 2 samples.

Results

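Interferon-responding macrophages were singled out among the non-myocytes of the adult mouse ventricle as cells carrying RNA of complement C1q together with RNA of 5 interferon-induced genes. Of 14099 barcodes deposited for 2 libraries, 12951 had at least 500 UMIs (unique molecular identifiers, counting captured RNA molecules) and at most 10% mitochondrial UMIs. Among these, 5542 macrophages had at least 15 UMIs of C1qa, C1qb and C1qc together, at most 3 of the fibroblast gene Dcn and at most 1 of the endothelial genes Pecam1 and Cdh5. The interferon-responding set comprised the 85 macrophages with at least 5 UMIs summed over Ifit1, Ifit2, Ifit3, Rsad2 and Cmpk2. They were compared with the 4724 macrophages that had no UMI of any of the 5 genes, and 733 macrophages with 1 to 4 UMIs lay between them.

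Both libraries were made with droplet 3′ single-cell chemistry from wild type C57BL/6 hearts at an age of 10 to 12 weeks. The atria were removed, cardiomyocytes were spun out, red cells were lysed, and live cells were sorted. No treatment, infection or injury is named in the labels, and all cells share 1 genotype and 1 condition. The libraries are called mouse 1 and mouse 2 here after the numbers in their titles, although nothing states that they came from separate animals. P-values therefore measure only how the difference between sets varies between these 2 libraries.

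Type I interferons bind a receptor made of Ifnar1 and Ifnar2, whose kinases Jak1 and Tyk2 switch on transcription factors. Complexes that hold Stat2 and Irf9 then bind interferon-stimulated response elements near many genes, which encode sensors of foreign nucleic acid, antiviral effectors, GTPases and antigen-presentation proteins. Heart macrophages include a self-renewing resident population marked by Timd4, Lyve1 and Folr2, and Ccr2 cells that derive from blood monocytes.

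Interferon-responding cells made up 1.64% of the C1q macrophages in mouse 1 (51 of 3107, exact 95% interval 1.22 to 2.15) and 1.40% in mouse 2 (34 of 2435, 0.969 to 1.95). The intervals overlap and cover counting error only. Any UMI of the 5 genes was found in 15.8% of macrophages in mouse 1 and 13.5% in mouse 2. The threshold therefore took the upper end of a continuous range: 12 and 9 cells held exactly 5 UMIs, just inside it, while 19 and 10 cells held exactly 4, just outside it.

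The values that chose the cells are given as a description. The summed count of the 5 genes had a median of 7 UMIs in mouse 1 and 7.5 in mouse 2, and reached 59 and 61. Ifit3, an RNA-binding antiviral protein, was detected in 46 of 51 and 32 of 34 cells, and its partner Ifit1 in 45 and 32. Rsad2, which encodes viperin, was found in 32 and 28 cells, its chromosomal neighbour Cmpk2 in 26 and 17, and Ifit2 in 25 and 12. All 5 genes were detected together in 7 cells of mouse 1 and 8 of mouse 2.

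The interferon-responding cells were somewhat deeper than the comparison cells, with a median of 3406 UMIs against 2774 in mouse 1 and 3524.5 against 2577 in mouse 2. A rule set on UMI counts favours deep cells. The gene comparisons among macrophages were therefore also computed against comparison cells of matched depth. The median mitochondrial share was 3.71% against 3.80% in mouse 1 and 2.93% against 3.03% in mouse 2. Scrublet, which scores cells against simulated doublets, marked 2 and 1 interferon-responding cells, or 3.92% and 2.94%, against 2.06% and 1.99% of the comparison cells. The libraries held 21355383 and 15174548 UMIs, and 65 cell barcodes occurred in both. Summed over cells, the interferon-responding sets had 185836 and 125018 UMIs and the comparison sets 7897049 and 5761680.

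Beyond the genes of the rule, 168 of 9692 tested genes rose in interferon-responding macrophages, which is 1.73% of the genes tested (edgeR quasi-likelihood test with the mouse as a block, adjusted p below 0.05 and a change of at least 1 on the log2 scale). All 168 were higher in both mice, and 79 of them were on the lists of interferon-induced or class I genes, while 75 were on no list. Fewer fell: 28 genes, or 0.289%. The median log2 fold change over all genes tested was -0.13. Levels below are CPM, the UMIs of a gene scaled to 1e+06 UMIs of the summed set. Because only 2 libraries entered, the test had 1 residual degree of freedom and its p-values lean on the spread shared across genes.

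**Figure D1:**
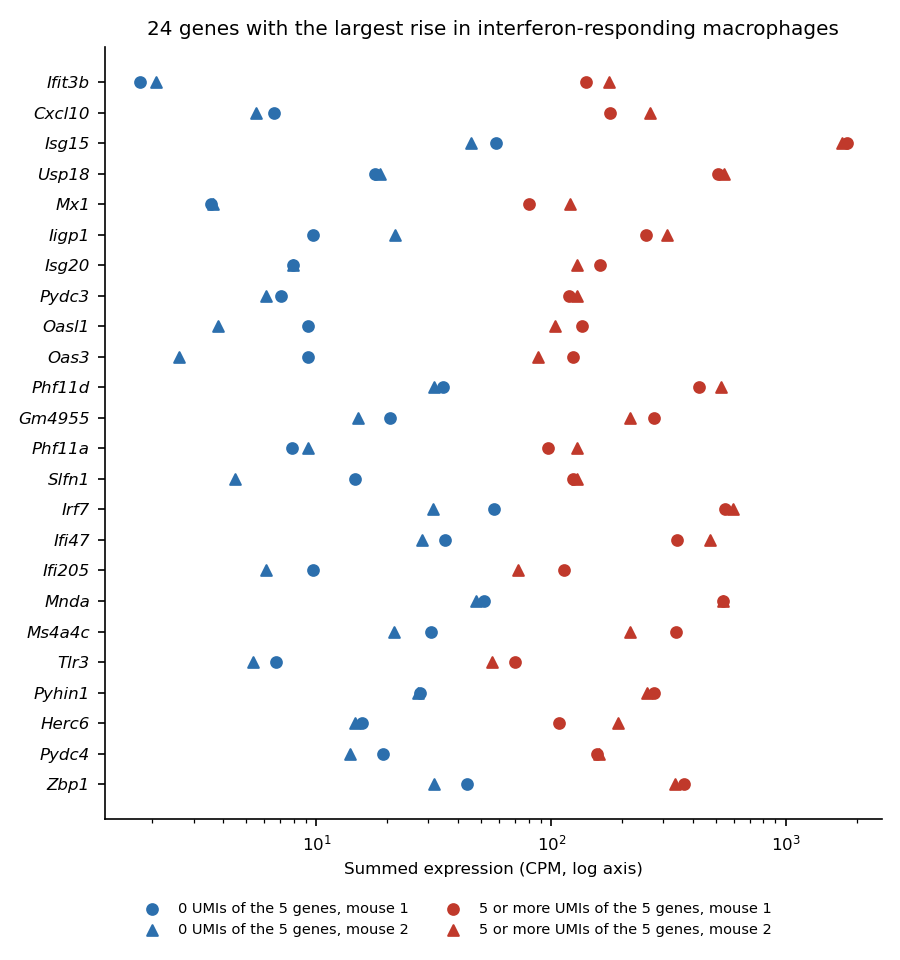
Summed expression in CPM (log axis) of the 24 genes with the largest rise, in macrophages with 5 or more UMIs of the 5 rule genes (red) and with 0 UMIs (blue); circles are mouse 1 and triangles mouse 2. For every gene both red points lie to the right of both blue points, and Isg15 reaches 1808 and 1720 CPM against 58.4 and 45.3.

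Isg15, a ubiquitin-like protein joined to other proteins and also secreted, was the most abundant of the 24 genes with the largest rises. It stood at 1808 CPM in mouse 1 and 1720 CPM in mouse 2, against 58.4 and 45.3 CPM in the comparison cells. The values of the sets are far apart in each mouse, and the log2 fold change was 5.04 ± 0.14 (SE). Isg15 was detected in 49 of 51 and 33 of 34 cells, so nearly every cell carried it. Usp18, the protease that removes Isg15 from proteins and dampens receptor signalling, went from 17.7 and 18.6 CPM to 511.2 and 543.9 CPM, a log2 fold change of 4.81 ± 0.21.

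The largest fold change belonged to Ifit3b, with 139.9 and 176 CPM against 1.77 and 2.08 CPM and a log2 fold change of 6.27 ± 0.54. Ifit3b is a near copy of Ifit3, a gene of the rule, and how reads were divided between them is uncertain. Isg20, an exonuclease of viral RNA, rose by 4.15 ± 0.41 and Mx1 by 4.70 ± 0.59. Mx1 encodes an antiviral GTPase in many mice but carries a non-functional allele in C57BL/6. Its RNA stood at 80.7 and 120 CPM against 3.55 and 3.65.

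Cxcl10, a chemokine that attracts activated T cells, was distributed unlike the other leading genes. Its level was 177.6 and 264 CPM against 6.58 and 5.55 CPM, and the log2 fold change was 5.07 ± 0.37. However, only 8 of 51 and 5 of 34 cells had a Cxcl10 UMI, against 19 of 2617 and 21 of 2107 comparison cells. The levels rest on single cells: 1 cell held 25.8% of all Cxcl10 UMIs, which was 17 of the 33 in mouse 1. In mouse 2 the highest cells had 14 and 10 of the 33. Of the interferon-responding cells with a Cxcl10 UMI, 7 and 5 were among the 13 and 15 cells with 10 or more UMIs of the 5 genes. Those 13 and 15 cells held 31 of 33 Cxcl10 UMIs in mouse 1 and all 33 in mouse 2.

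**Figure D2:**
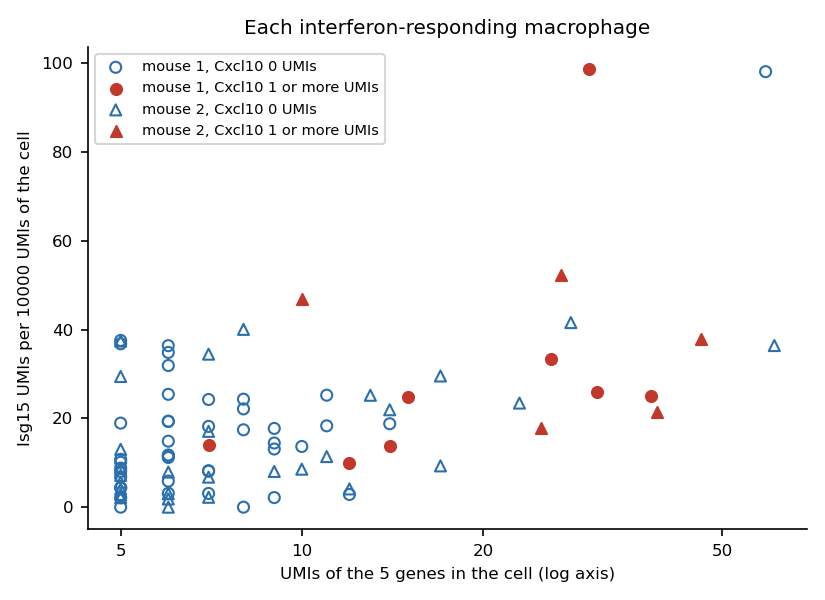
Each point is 1 interferon-responding macrophage, with the UMIs of the 5 rule genes on the horizontal axis (log scale) and Isg15 UMIs per 10000 UMIs of the cell on the vertical axis; circles are mouse 1, triangles mouse 2, and filled points have a Cxcl10 UMI. Filled points lie mostly to the right, 7 and 5 of them at 10 or more UMIs, while Isg15 is present from 5 UMIs upward.

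To show what the strongest genes have in their promoters, the 250 bases before the start are printed for the 4 genes with the largest fold changes, among risen genes with an entry in the promoter table, whose promoter holds the core of the interferon-stimulated response element, here GAAA, any 2 bases and GAAA, and for the 1 with the largest fold change without it (RefSeq, build GRCm38.p6, 5′ to 3′ on the gene's strand). Capitals mark this core, or its reverse complement where the match is on the other strand.
Ifit3b, chr19:34607707-34607956, plus strand: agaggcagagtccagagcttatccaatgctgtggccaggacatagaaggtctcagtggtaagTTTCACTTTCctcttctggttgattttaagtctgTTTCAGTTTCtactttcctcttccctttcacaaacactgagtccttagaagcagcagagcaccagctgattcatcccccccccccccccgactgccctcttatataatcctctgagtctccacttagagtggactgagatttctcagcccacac
Cxcl10, chr5:92348890-92349139, minus strand: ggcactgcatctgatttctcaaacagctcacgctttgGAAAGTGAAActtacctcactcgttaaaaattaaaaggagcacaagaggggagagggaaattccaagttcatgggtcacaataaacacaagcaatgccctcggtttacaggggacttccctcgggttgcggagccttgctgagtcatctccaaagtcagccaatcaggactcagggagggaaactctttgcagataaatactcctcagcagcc
Isg15, chr4:156200819-156201068, minus strand: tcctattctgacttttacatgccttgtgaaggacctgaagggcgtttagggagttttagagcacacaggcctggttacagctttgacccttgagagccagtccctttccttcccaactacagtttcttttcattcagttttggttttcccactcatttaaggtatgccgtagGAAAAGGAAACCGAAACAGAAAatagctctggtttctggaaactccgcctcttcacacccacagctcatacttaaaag
Pydc3 (Ifi208 in RefSeq), chr1:173673415-173673664, plus strand: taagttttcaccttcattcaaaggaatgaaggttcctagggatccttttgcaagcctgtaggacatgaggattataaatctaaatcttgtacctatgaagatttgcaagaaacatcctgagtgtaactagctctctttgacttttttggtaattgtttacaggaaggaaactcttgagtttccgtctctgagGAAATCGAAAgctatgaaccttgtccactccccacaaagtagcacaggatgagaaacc
Isg20, chr7:78913174-78913423, plus strand, no match: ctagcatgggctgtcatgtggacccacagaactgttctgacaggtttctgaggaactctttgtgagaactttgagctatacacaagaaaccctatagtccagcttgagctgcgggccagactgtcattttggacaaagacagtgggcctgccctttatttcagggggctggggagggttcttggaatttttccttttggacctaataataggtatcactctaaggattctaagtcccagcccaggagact

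In Ifit3b there were 2 matches, both on the opposite strand, beginning 188 and 154 bases before the start. Isg15 held 3 overlapping matches in 1 run that begins 78 bases before the start, Pydc3 had 1 match at 58 bases and Cxcl10 1 at 213 bases. None of the 3 starts listed for Isg20 had a match.

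Promoter sequences, here 250 bases before to 50 after the start, were matched by symbol for 20 of the 24 genes with the largest rises. The core, searched on both strands, was present in 10 of these 20. Among all tested genes it was present in 319 of 7766 matched genes, or 4.11%, and in the whole promoter table in 3.99%. The gamma-activated site, TTC, any 3 bases and GAA, also searched on both strands, was in 1 of the 20, against 8.19% of tested genes. Of the 28 genes that fell, 24 were matched and 0 held the core. A share over all 168 genes that rose is void, since only 132 (78.6%) had a promoter in the table. Among those 132, the core was in 47 and the gamma-activated site in 18. A match is a string of letters and not evidence of binding.

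Genes of interferon ligands and receptors were not among those called. None of the 11 listed interferon ligand genes had a UMI in the interferon-responding cells of either mouse, and no ligand gene passed the filter on low counts. In the comparison cells 1 of the 11 was above 0 in each mouse, at 1.01 and 0.521 CPM summed over the list. With sums of 185836 and 125018 UMIs, low ligand expression was not detectable at this depth. Of 8 tested receptor and kinase genes none was called in either direction, 2 had an unadjusted p below 0.05, and the median log2 fold change was -0.41. Over all genes tested, 1.73% were called higher and 0.289% lower, so no call among 8 genes is no result about them. Ifngr1, the ligand-binding chain of the interferon gamma receptor, was at 199.1 and 200 CPM against 306.7 and 326.3, a log2 fold change of -0.71 ± 0.20 that did not reach the size required for a call.

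Among 13 transcription factors of interferon signalling, 4 rose and none fell, with a list median of 0.38. Irf7, which amplifies interferon gene transcription, went from 57.2 and 31.4 CPM to 548.9 and 591.9 CPM (log2 fold change 3.62 ± 0.18). Stat2, a component of the complex that binds response elements, rose from 18.6 and 18.7 CPM to 102 and 56.0 CPM (2.10 ± 0.42), and Nmi rose by 1.95 ± 0.32. Irf9, the partner of Stat2, was at 59.2 and 136.0 CPM against 70.0 and 64.2 CPM, lower in mouse 1 and higher in mouse 2, and was not called.

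Sensors of nucleic acid rose broadly: 13 of 22 tested genes were called higher, none lower, and the median log2 fold change was 2.23. They included the cytosolic RNA helicases Ddx58 (RIG-I; 2.47 ± 0.35), Ifih1 (MDA5; 2.44 ± 0.38) and Dhx58, the endosomal RNA receptor Tlr3 (3.33 ± 0.61), and Zbp1, a sensor of Z-form nucleic acid (3.16 ± 0.22). Zbp1 stood at 365.9 and 336 CPM against 43.8 and 31.8 CPM. The PYHIN family of DNA-binding proteins contributed Ifi205, Mnda, Pyhin1, Ifi203, Mndal and Ifi204. Of these Ifi204 was the most abundant, at 930.9 and 823.9 CPM against 208.3 and 186.6 CPM.

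The list of antiviral effectors was the largest, with 36 of 45 tested genes higher, none lower and a median of 2.20. Over all genes tested, 1.73% were called higher. Like the other lists, it was drawn up with earlier results of these data known, so its count is a description. The 2′-5′ oligoadenylate synthetase family, which activates RNase L, was led by Oasl1 (4.11 ± 0.46), a family member that lacks the synthetase activity, and Oas3 (4.09 ± 0.49). Ifitm3, which blocks entry of viruses through endosomes, was already abundant at 2929 and 2290 CPM in the comparison cells and rose to 6538 and 5263 CPM, a log2 fold change of 1.13 ± 0.11. A change of 1 on the log2 scale was not reached by Ly6e (0.95 ± 0.12) or by Ifi27l2a (0.70 ± 0.11), the latter at 8615 and 5375 CPM against 5554 and 2919 CPM. 

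The ISG15 and ubiquitin-like system followed the same direction, with 9 of 13 genes higher and a median of 2.03. Beside Isg15 and Usp18 these were the ligase gene Herc6 (3.18 ± 0.37), the conjugating enzyme Ube2l6 (1.96 ± 0.28), Trim12c, and the ADP-ribosylation genes Parp9, Parp12 and Parp14 with Dtx3l, the partner of Parp9. Among guanylate-binding proteins and immunity-related GTPases, which attack vacuoles of intracellular pathogens, 9 of 13 rose with a median of 2.51. Iigp1 led them, going from 9.62 and 21.5 CPM to 252.9 and 312 CPM (4.22 ± 0.29). Tgtp2 had 3.70 ± 0.87 on 5 and 7 UMIs, and other risen members were Ifi47 (3.59 ± 0.22), Igtp (2.85 ± 0.30) and Gbp2 (2.77 ± 0.32).

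**Figure D3:**
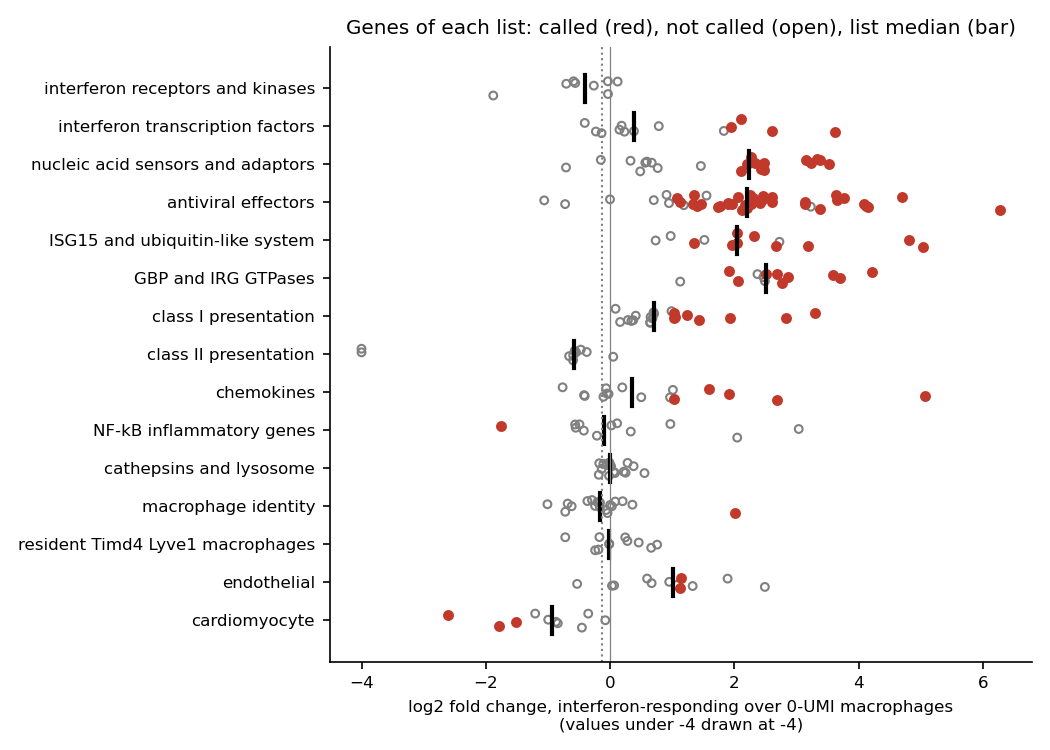
Log2 fold change of each tested gene in interferon-responding over 0-UMI macrophages, by gene list; red points were called, open points were not, black bars are list medians and the dotted line is the median of all genes, -0.13. Sensors, antiviral effectors, the ISG15 system and GTPases have medians above 2, whereas receptors and class II genes have medians below 0.

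Several of the risen genes lie next to each other in the genome (GENCODE annotation, GRCm38, the assembly called mm10). With neighbours no more than 500 kb apart, 29 of the 166 risen genes with a position fell into 5 runs of at least 4. The longest run by gene number was on chromosome 1 (173468485-174031810), where 9 of 10 tested genes rose: Gm4955, Pydc4, Pyhin1, Pydc3, Ifi204, Mndal, Mnda, Ifi203 and Ifi205. On chromosome 7 (104244457-104507849) 6 of 8 tested genes rose, all of the Trim12, Trim30 and Trim34 family. A run on chromosome 11 (82951349-83530518) held 5 risen of 10 tested genes, Slfn1, Slfn2, Slfn5, Slfn8 and Ccl5. A run on chromosome 5 (120730333-121385632) held 5 of 9, Oas1a, Oas1g, Oas2, Oas3 and Trafd1. The last, on chromosome 17 (33909414-34216321), held 4 of 22, Daxx, Tap1, Psmb8 and Tap2. The PYHIN, Trim, Slfn and Oas genes are families of similar genes, and counts of single members are uncertain where copies share sequence. The runs were looked for after the values were seen.

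Class I and class II antigen-presentation genes had list medians of opposite sign. In the class I pathway, which displays peptides of the cell's own proteins, 8 of 21 tested genes rose, none fell and the median was 0.70. The immunoproteasome subunit Psmb8 went from 300.6 and 334.3 CPM to 688.8 and 879.9 CPM (1.24 ± 0.14), the peptide transporter Tap1 from 38.5 and 48.4 CPM to 161.4 and 176.0 CPM (1.92 ± 0.28), and the class I transactivator Nlrc5 was among the called genes. B2m, the invariant light chain, was at 5892 and 5887 CPM against 4168 and 4386 CPM, a log2 fold change of 0.41 ± 0.11 (edgeR adjusted p 0.0081). The heavy chain genes H2-D1 (0.09 ± 0.11) and H2-K1 (0.34 ± 0.13) were not called, with edgeR adjusted p-values of 0.954 and 0.203.

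In the class II pathway, which displays peptides taken up from outside, none of 10 tested genes was called, 6 had an unadjusted p below 0.05 and the median was -0.58. With 1.73% of all tested genes called higher and 0.289% lower, no call among 10 genes is no result about them. No gene of this list was above 0 in both mice. The invariant chain Cd74 was at 11440 and 16494 CPM against 16599 and 23314 CPM, a log2 fold change of -0.57 ± 0.11. H2-Aa, H2-Ab1 and H2-Eb1, the chains of the peptide-binding molecules, had values of -0.60, -0.55 and -0.66, all with adjusted p-values of at most 4.2e-05 and all under the fold required for a call. These p-values did not hold without the mouse block, where they ran from 0.199 for H2-Eb1 to 0.522 for H2-Ab1. Without cells with endothelial UMIs they were 0.221 for Cd74, 0.105 for H2-Aa and 0.188 for H2-Ab1. The share of cells with an H2-Aa UMI, each thinned to 1000 UMIs, was 52.9% against 59.2% in mouse 1 and 64.7% against 76.7% in mouse 2. The exact 95% intervals overlapped in mouse 1 (38.5 to 67.1 against 57.3 to 61.1) and in mouse 2 (46.5 to 80.3 against 74.8 to 78.5).

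Of 16 chemokine genes 5 rose and none fell. Ccl12, a ligand of Ccr2 on monocytes, was the most abundant of them, at 4805 and 4247 CPM against 1022 and 437.2 CPM (log2 fold change 2.68 ± 0.12). It was detected in 44 of 51 and 25 of 34 cells, unlike Cxcl10. Its chromosomal neighbours Ccl7 (1.58 ± 0.13) and Ccl2 (1.03 ± 0.14), which signal through the same receptor, also rose, as did Ccl5 (1.91 ± 0.32). Ccl6 was lower at -0.42 ± 0.12, under the fold required.

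Of 12 tested genes of the inflammatory NF-kB programme none rose and Il1b fell, with 5 at an unadjusted p below 0.05. With 1.73% of all tested genes called higher and 0.289% lower, no rise among 12 genes is no result about them. Il1b, the inflammatory cytokine interleukin 1 beta, had 2 and 5 UMIs in the interferon-responding cells, or 10.8 and 40.0 CPM against 54.3 and 101.0 CPM, a log2 fold change of -1.76 ± 0.47. Cd14, a co-receptor for bacterial lipopolysaccharide, was at 871.7 and 343.9 CPM against 1057 and 660.1 CPM (-0.55 ± 0.14). Of 16 tested genes for cell death, co-stimulation and feedback, 6 rose: Tnfsf10 (TRAIL), Ch25h, Il18bp, Cd40, Il15 and Casp4. Ch25h, which makes an antiviral oxysterol, had 24 and 5 UMIs in 10 and 3 cells, and its log2 fold change was 2.48 ± 0.43.

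Among the genes that fell, Gpr183, a receptor that guides cells along oxysterol gradients, had the largest fall of those with enough signal to name. It had 2 UMIs in each mouse, or 10.8 and 16.0 CPM against 54.7 and 64.7 CPM (log2 fold change -2.24 ± 0.58). The falls rest on few molecules: 10 of the 28 genes had 3 or fewer UMIs in the interferon-responding cells. The other named falls, B4galt1, Map7d1, Myl3, Gm26740, Cuta, Mrpl18, H2afv and Mapk3, ranged from -1.61 to -1.10. DESeq2 called 0 of the 28, with 66 genes lower at an unadjusted p below 0.05. Of the 28, 26 were lower in both mice, and the exceptions were the neutrophil genes S100a8 and S100a9, which were higher in mouse 2, on 1 UMI each.

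Lists of macrophage genes were also tested. Over all genes tested, 1.73% were called higher and 0.289% lower. At these shares lists of this size hold few calls, so an absence of calls is no result about their genes. Of 18 macrophage identity genes only Fcgr1 was called, with 7 at an unadjusted p below 0.05. Fcgr1, an activating antibody receptor also known as CD64, was at 597.3 and 671.9 CPM against 178.2 and 125.5 CPM (2.00 ± 0.16). None of 17 cathepsin and lysosome genes was called, with 3 at an unadjusted p below 0.05 and a list median of -0.01. None of 11 genes of the resident Timd4 and Lyve1 population was called (6 at an unadjusted p below 0.05, median -0.02), and none of 6 tested genes of Ccr2 macrophages and monocytes (1 at an unadjusted p below 0.05). Lyve1 itself, a hyaluronan receptor, was at 1082 and 511.9 CPM against 1110 and 622.4 CPM.

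At a common depth of 1000 UMIs per cell, Lyve1 or Timd4 was detected in 56.9% of interferon-responding cells in mouse 1 (exact 95% interval 42.2 to 70.7) and 50.0% in mouse 2 (32.4 to 67.6). The comparison cells had 55.0% and 38.2%, and fibroblasts, which should lack both genes, 2.04% and 0.496%. Ccr2 was detected in 3.92% and 5.88% against 4.45% and 4.71%, with 0.0617% and 0.165% in fibroblasts. In each mouse the intervals of these shares in interferon-responding and comparison cells overlapped, so no difference in the makeup by these markers was detectable with 51 and 34 cells. The median depth was 2778.5 and 2601 UMIs in the thinned comparison cells and 2732 and 2502.5 in fibroblasts. Without thinning the shares were higher, and Lyve1 or Timd4 reached 74.5% in interferon-responding cells of mouse 1.

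RNA typical of other cell types was also followed. The endothelial list, 12 genes, summed to 1388 and 1360 CPM against 642.0 and 929.9 CPM, and 2 of its genes were called higher, Fabp4 (1.14 ± 0.15) and Ly6c1 (1.13 ± 0.29). In mouse 2 all 12 genes had a UMI, and in mouse 1 11 did. When cells with at least 3 endothelial UMIs were left out, 37 and 20 interferon-responding cells remained. Then 117 genes rose, 70 of them on the interferon or class I lists, and 0 on the endothelial list. The count of 0 is no separate result, since cells were left out by their UMIs of that same list. All 24 named rises were still called. The cardiomyocyte list summed to 532.7 and 184.0 CPM against 1032 and 443.6 CPM, and its genes Mb, Tnnt2 and Myl3 fell. Without cells that held 5 or more cardiomyocyte UMIs, 153 genes rose and 24 fell. In the interferon-responding cells all genes on the T and NK cell and B cell lists were at 0 in both mice, and in the comparison cells these lists summed to at most 29.8 CPM.

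Macrophages with 1 to 4 UMIs of the 5 genes stood between the 2 sets for Isg15, Usp18 and Irf7. Against the same 0-UMI cells, 97 of 10177 tested genes rose (0.953%) and 4 fell (0.0393%). Of the 97, 25 were on the interferon or class I lists. Endothelial genes were prominent here, with 9 of the 12 on that list higher and a summed level of 1502 and 1556 CPM against 642.0 and 929.9 CPM. Without cells that held 3 or more endothelial UMIs, 40 genes rose, of which 33 were on the interferon or class I lists and 0 on the endothelial list. Here too the 0 follows largely from leaving cells out by that list. Both comparisons share their 0-UMI cells, so their values are set side by side: Isg15 had 1.82 ± 0.10 in the 1-to-4 UMI cells and 5.04 ± 0.14 in interferon-responding cells, Irf7 1.60 ± 0.11 and 3.62 ± 0.18, Usp18 1.80 ± 0.17 and 4.81 ± 0.21. Cxcl10 was at 0.90 ± 0.34 in the 1-to-4 UMI cells and was not called there. With no mouse block, edgeR called 0 genes higher or lower in this comparison, with 241 and 68 at an unadjusted p below 0.05.

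Divided by the number of UMIs of the 5 genes, the response was graded. Isg15 stood at 58.4 and 45.3 CPM at 0 UMIs, 143 and 114 at 1 UMI, 264 and 234 at 2, 618 and 538 at 3 to 4, 1297 and 878 at 5 to 9, and 3107 and 2630 at 10 or more. The levels followed the same order in both mice. Cxcl10 was different: it was at most 17.7 CPM in every class below 10 UMIs, with 0 UMIs at 3 to 4 in both mice, and 591 and 549 CPM in the 13 and 15 cells at 10 or more. Ccl12 went from 3277 and 2048 CPM at 5 to 9 UMIs to 8691 and 6626 CPM at 10 or more. The endothelial list did not follow this order, with 2221 and 1166 CPM at 3 to 4 UMIs and 572 and 1282 CPM at 10 or more.

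**Figure D4:**
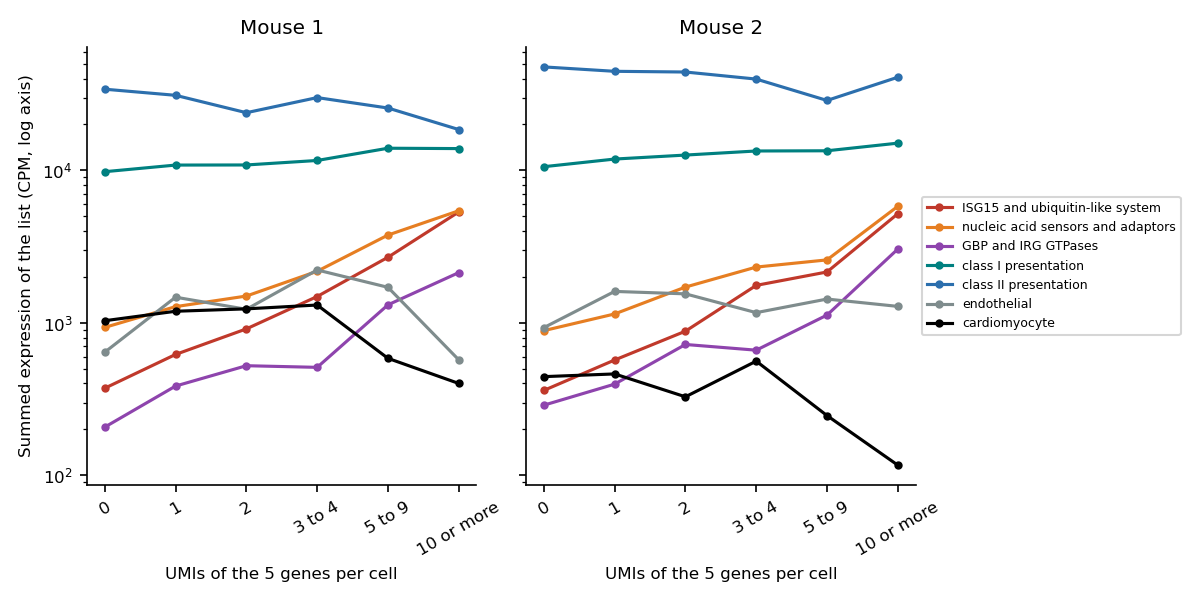
Summed expression of gene lists in CPM (log axis) in macrophages grouped by their UMIs of the 5 rule genes, for each mouse; each line is 1 list. The ISG15 system climbs from 373 and 360 CPM at 0 UMIs to 5337 and 5194 CPM at 10 or more, while class II genes are lower at 10 or more UMIs than at 0 in both mice.

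The same 5 genes also marked 69 of 961 endothelial cells, taken as cells with at least 3 UMIs of Pecam1 and Cdh5 and at most 2 of C1q, which allowed the response to be compared between cell types. There were 29 and 40 endothelial cells with 5 or more UMIs and 219 and 278 with none. Their median depths were 2000 and 2068 UMIs against 1578 and 1548.5, below those of the macrophage sets. The comparison between cell types was not repeated at matched depth. Of 5325 genes tested for a difference between the responses, 31 had a larger change in macrophages (0.582%) and 11 in endothelial cells (0.207%). Larger refers to the signed log2 fold change, so a gene that fell in 1 cell type can count as larger in the other. Guanylate-binding and immunity-related GTPases had a median log2 fold change of 2.70 in macrophages and 1.50 in endothelial cells, sensors 2.39 and 0.93, and class I genes 0.71 and 0.24. Over all 5325 genes the medians were -0.05 and -0.13, and the median difference was 0.10 towards macrophages. Of 117 interferon and class I genes, 100 had the larger fitted change in macrophages, but the difference was called for 10 of them. How many of all tested genes had the larger change in macrophages was not counted.

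All 10 genes were higher in unmarked endothelial cells than in 0-UMI macrophages of the same mouse. Isg15 was at 1672 and 2003 CPM in the marked endothelial cells, close to the macrophage levels, but their unmarked counterparts already had 118 and 152 CPM, so that its log2 fold change was 3.68 ± 0.18 there and 5.06 ± 0.16 in macrophages in the joint fit. Iigp1 was higher in endothelial cells in both states, at 172 and 250 CPM without and 474 and 657 CPM with the 5 genes, and its change was 1.33 ± 0.24 against 4.23 ± 0.27. Xaf1, Slfn5, Sp110, Parp12, Tor3a, Ifi47, Phf11d and Ifi203 also had the larger change in macrophages.

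Chemokines were among the genes with the larger change in macrophages, and cell cycle genes among those with the larger change in endothelial cells. Ccl2 rose in macrophages (1.04 ± 0.16), while in endothelial cells it had 2 and 1 UMIs with the 5 genes and 47 and 9 UMIs without. Ccl5 had 15 and 24 UMIs in interferon-responding macrophages and 1 and 0 in marked endothelial cells. In unmarked endothelial cells it had 43 UMIs in mouse 1 but 1 in mouse 2 (110 and 2.14 CPM). In the other direction, Cenpf, Cdc20, Prc1, Cks2 and Top2a, genes of mitosis, rose in the marked endothelial cells, where Cks2 stood at 162 and 261 CPM against 10.3 and 4.28 CPM. In interferon-responding macrophages Cks2 was at 43.0 and 96.0 CPM against 37.4 and 48.4 CPM and was not called. None of these differences was called without the block of mouse and cell type, where 227 and 109 genes had an unadjusted p below 0.05 in the 2 directions. DESeq2 called 5 and 2.

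**Figure D5:**
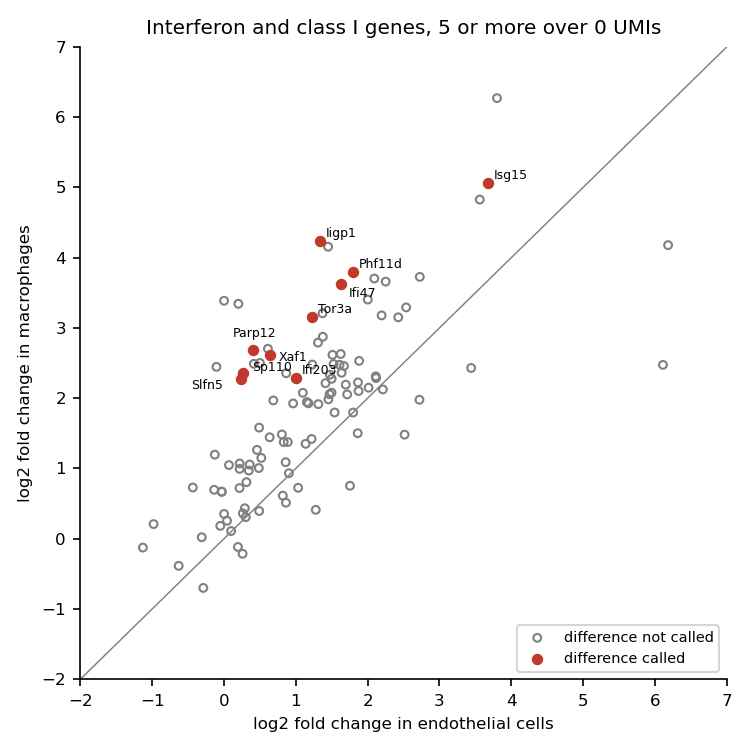
Log2 fold change between cells with 5 or more and with 0 UMIs of the 5 rule genes in macrophages (vertical) and endothelial cells (horizontal), for interferon and class I genes; the line marks equal change, and 7 of 117 genes lie outside the axes. Filled points are the 10 genes whose difference was called, and all 10 lie above the line.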

How the data were processed

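Ventricular non-myocytes were measured in 2 single-cell libraries. The deposited values are raw UMI counts per gene and barcode, and per the submitters' processing notes they were made with Cell Ranger 2.2.0 and FastQC on build mm10. How barcodes were chosen is not given in the sources used here. Members, gene lists and tests were chosen with earlier results of these data known. Counts were summed per mouse and set, the 5 genes of the rule and the 6 other genes that define the sets were left out of testing but kept in library sizes, and edgeR 4.0.16 (TMM, filterByExpr, quasi-likelihood test, Benjamini-Hochberg over all genes tested) was fitted in R 4.3.3, with the mouse as a block. The block comes from each library giving both sets. The test was checked on simulated data for the first comparison. It recovered 15 of 80 genes raised 2-fold, 52 of 54 raised 4-fold and 66 of 66 raised 8-fold. The genes raised 2-fold had a median fitted log2 fold change of 0.87, under the 1 required for a call. Recovery of falls, and of genes on few UMIs, was not tested. There were 7 false calls among 9606 genes tested. A gene that was not called can therefore have changed by 2-fold. Named were the 24 largest rises and 10 largest falls among called genes with the same direction in each mouse and at least 50 CPM on the higher side, up to 4 further members per list by CPM where their adjusted p was below 0.05, and the 6 largest differences each way against endothelial cells. Genes picked out otherwise were chosen after their values were seen. Alternatives were DESeq2 1.42.0, no composition scaling, no filter, no block, other cell limits, and leaving out doublets (Scrublet in scanpy 1.11.5). Thinning drew 1000 UMIs per cell, leaving out 9 and 46 shallower comparison cells. Coordinates are from GENCODE on GRCm38.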

Additional observations from a re-analysis of the deposited data

Results flagged for a closer look

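Of the 31 genes with a larger change in macrophages and the 11 with a larger change in endothelial cells, 22 are given, the 6 with the largest difference each way and 10 interferon genes. For these the change between cells with 5 or more and with 0 UMIs of the 5 genes differed between macrophages and endothelial cells, by edgeR's test of the difference itself. Values are the macrophage minus the endothelial log2 fold change. Larger in macrophages were the chemokines Ccl5 (5.23 ± 0.98) and Ccl2 (3.09 ± 0.64) and Fgl2 (4.22 ± 0.80), which encodes a prothrombinase of activated macrophages. So were Enpp4 (3.56 ± 0.69), Nt5c3 (3.18 ± 0.76) and Aqp7 (3.16 ± 0.71), a glycerol channel. In endothelial cells Ccl5, Ccl2 and Fgl2 had log2 fold changes of -3.29, -2.05 and -2.13, none of them called. Marked endothelial cells held 1 and 0 Ccl5 UMIs, 2 and 1 Ccl2 UMIs, and 1 and 1 Fgl2 UMIs. The fitted differences of these genes therefore depend on the prior count. Aqp7 stood at 187 and 386 CPM in the marked endothelial cells and at 10.8 and 56.0 CPM in interferon-responding macrophages, and its difference was 1.75 and not called when macrophages with endothelial UMIs were left out.

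Among interferon genes the differences were 2.90 ± 0.33 for Iigp1, 2.28 ± 0.49 for Parp12, 2.09 ± 0.39 for Sp110, 2.04 ± 0.36 for Slfn5, 2.00 ± 0.35 for Phf11d, 2.00 ± 0.45 for Ifi47, 1.98 ± 0.32 for Xaf1, 1.93 ± 0.49 for Tor3a, 1.38 ± 0.24 for Isg15 and 1.28 ± 0.30 for Ifi203. Both mice showed the direction for each.

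Larger in endothelial cells were the cell cycle genes Cenpf (-6.35 ± 1.22), Cdc20 (-5.66 ± 1.28), Prc1 (-4.95 ± 1.20), Cdkn2c (-4.50 ± 0.99), Cks2 (-4.25 ± 0.64) and Top2a (-3.31 ± 0.82). Of these Cdkn2c was called lower in macrophages (-2.70) and was not called in endothelial cells (1.80). In interferon-responding macrophages Cenpf had 0 and 1 UMIs, Cdc20 1 and 0, and Prc1 and Cdkn2c 0 and 2 each, so their fitted differences depend on the prior count and are no bounds. Groups of 2 mice were too small for a check of single outlying samples.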

How the results depend on the processing

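All 24 named rises were called under all 11 other fits. Within 1 mouse, 12 of them moved by more than the spread without mouse 1 and 4 without mouse 2, as Oas3 with 3.74 in mouse 1 and 5.08 in mouse 2. The 168 rises became between 117 (only cells with at least 10 UMIs, or without cells with endothelial UMIs) and 176 (at least 3 UMIs), and 162 and 164 kept a change of at least 1 within 1 mouse. The 28 falls became 2 without the replicate block, 0 with DESeq2, 12 without cells with endothelial UMIs, 45 with no Dcn or endothelial limit and 15 against cells of matched depth. Of the 28, 13 were shared with the 23 at 3 or more UMIs and 2 with the 32 at 10 or more, where 7 and 9 of the 10 named falls were lost. The 97 rises at 1 to 4 UMIs became 0 without the replicate block, 25 with DESeq2, 33 without doublets, 40 without cells with endothelial UMIs and 33 with no limits on comparison cells. The 4 falls there became 7 with no filter, 0 without the replicate block, 1 with DESeq2, 1 without cells with endothelial UMIs, 94 with no limits and 11 at matched depth. Differences from endothelial cells, 31 and 11, became 0 and 0 without the replicate block, 5 and 2 with DESeq2, 7 and 1 with at least 5 Pecam1 and Cdh5 UMIs, 17 and 6 without macrophages with endothelial UMIs, and 25 and 7 without doublets. The cause was not tested. Leaving out cells with endothelial UMIs was chosen after seeing the data. The differences were not counted with 1 mouse left. The mean share of interferon-responding cells, 1.52%, was 2.72% at 3 or more UMIs, 0.517% at 10 or more and 6.63% with a UMI after thinning to 1000. Mean detected shares at 1000 UMIs, without thinning and at 2000 UMIs were, for Isg15, 68.6%, 96.6% and 87.9% in interferon-responding and 4.61%, 11.3% and 8.67% in comparison cells, for Lyve1 or Timd4 53.4%, 69.6% and 61.4% against 46.6%, 65.1% and 62.7%, and for Ccr2 4.90%, 9.31% and 9.08% against 4.58%, 8.85% and 7.76%. With 51 and 34 cells, genes at a few CPM could not be tested.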
